A study of Homo sapiens with 16 samples.

Results

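The interferon-stimulated genes described here are 43 human gene symbols taken as a list: RNA sensors, transcription factors and antiviral effectors that cells switch on when interferon is sensed. All 43 symbols were found in the deposited count table of 37864 genes, on 44 rows, because IRF7 is listed under 2 gene identifiers. Of these rows 42 (41 symbols) had enough counts to be tested, among 17991 genes tested in all. BST2 and RSAD2 had at most 11 and 8 counts in any library and were not tested. The data are RNA-seq counts from 16 libraries, all of MDA-MB-231, an established mesenchymal line from a human breast tumour that lacks hormone receptors and HER2 amplification. The groups were afatinib (an inhibitor of the ErbB family of receptor kinases), paclitaxel (a drug that stabilises microtubules), the combination of both drugs, and the solvent DMSO, with 4 libraries each. Every group was the same line grown in DMEM with fetal bovine serum and antibiotics, and the labels name no added interferon, no dose and no exposure time. The series' title names synthetic lethality of the 2 drugs as its subject.

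As background, type I and type III interferons bind their receptors and act through the kinases JAK1 and TYK2. These phosphorylate STAT proteins, which enter the nucleus with IRF9 as the complex ISGF3, which binds interferon-stimulated response elements (ISRE) in promoters. Interferon gamma acts through GAS elements and through IRF1. Sensors of viral or misplaced cellular RNA such as RIG-I and MDA5 signal through MAVS to interferon genes, and many cancer lines carry a low level of this programme without any virus.

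Library totals ran from 28366004 to 48108577 counts, with paclitaxel replicate 4 the shallowest. The labels give an RNA concentration for each library. In every group replicates 1 and 2 had the higher and replicates 3 and 4 the lower concentrations, called the high and low concentration sets here. Mean concentrations in the high and low sets were 1002 and 184 ng/µl for afatinib, 388 and 252 for paclitaxel, 623 and 143 for the combination, and 1171 and 311 for DMSO. Mitochondrially encoded genes took 2.82% and 7.14% of counts in these sets for afatinib, 3.32% and 6.56% for paclitaxel, 3.21% and 8.75% for the combination, and 2.32% and 4.40% for DMSO. The part of the mitochondrial share in the results was not tested. The set is a term in the main tests, and alternatives without it are named as such. The 5 genes fixed as high in this line (VIM, CD44, EGFR, AXL and ZEB1) summed to 3600 to 6310 CPM (counts scaled per library total), against 21.7 to 30.3 CPM for 6 luminal markers. Blood cell markers summed to 1.05 to 1.91 CPM with afatinib, 2.45 to 3.13 with paclitaxel, 1.33 to 2.32 with the combination and 1.42 to 1.81 with DMSO, over the 5 of 8 listed markers in the table, none at 0 in all 16 libraries. Fibroblast markers (5 of 6 in the table) summed to 12.4 to 27.7 CPM and 4 endothelial markers to 2.7 to 9.25. Both tested blood markers rose with paclitaxel in edgeR's quasi-likelihood test: CD14, a monocyte receptor, by 1.07 ± 0.19 on the log2 scale (adjusted p = 0.00016) and CSF1R, a macrophage growth factor receptor, by 0.59 ± 0.21 (0.0455). CD14 also rose with the combination (0.51 ± 0.19, 0.0399), and both were lower with afatinib than with paclitaxel (-0.79 ± 0.18 and -0.98 ± 0.22). PTPRC, CD3E and LYZ stayed at or under 0.116 CPM in every library. The part of these low counts in the results was not tested. The labels do not say that replicates were separate cultures, so p-values measure the spread between these libraries, which may be technical.

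The promoters of the listed genes are shown first, since the ISRE is the sequence that the shared regulator ISGF3 reads. RefSeq promoter windows on GRCh38.p14, 250 bases before to 50 after the annotated start, were at hand for 32 of the 43 symbols. The letters GAAA, any 2 bases and GAAA again, the core of the ISRE, were found on either strand in 21 of the 32 (65.6%), against 1255 of 35116 promoter windows of all genes (3.57%). The letters TTCNNNGAA, the core of the GAS element, were in 9 of the 32 (28.1%), against 2689 of all windows (7.66%). Matches of both motifs were counted separately and may overlap each other. A match is a description of the letters, not of binding. The stretches below show the ISRE matches of members whose levels are described further on, read 5′ to 3′ on the strand of the gene. Capitals mark the matches, and a match on the opposite strand reads in reverse complement. They are credited to RefSeq, and the name is followed by the location.
IFIT1, chr10:89392492-89392544, plus strand: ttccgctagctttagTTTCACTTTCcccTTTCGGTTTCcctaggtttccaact
IFIT3, chr10:89327826-89327899, plus strand: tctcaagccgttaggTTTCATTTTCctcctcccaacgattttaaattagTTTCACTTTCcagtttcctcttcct
IFIT5, chr10:89414508-89414588, plus strand: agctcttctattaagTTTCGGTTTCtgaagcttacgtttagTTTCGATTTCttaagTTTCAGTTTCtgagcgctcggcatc
ISG15, chr1:1013369-1013414, plus strand: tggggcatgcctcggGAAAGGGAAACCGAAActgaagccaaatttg
HERC5, chr4:88456979-88457069, plus strand: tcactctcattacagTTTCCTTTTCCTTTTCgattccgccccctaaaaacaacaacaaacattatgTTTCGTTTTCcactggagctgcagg
IFI6, chr1:27672261-27672363, minus strand: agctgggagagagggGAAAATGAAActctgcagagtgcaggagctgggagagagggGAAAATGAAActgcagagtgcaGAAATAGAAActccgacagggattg
PARP14, chr3:122680795-122680834, plus strand: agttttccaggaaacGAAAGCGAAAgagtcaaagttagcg
IFITM3, chr11:320871-320927, minus strand: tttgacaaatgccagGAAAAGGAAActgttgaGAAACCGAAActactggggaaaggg
GBP1, chr1:89065311-89065350, minus strand: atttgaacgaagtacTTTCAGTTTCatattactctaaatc
IFIH1, chr2:162318681-162318858, minus strand: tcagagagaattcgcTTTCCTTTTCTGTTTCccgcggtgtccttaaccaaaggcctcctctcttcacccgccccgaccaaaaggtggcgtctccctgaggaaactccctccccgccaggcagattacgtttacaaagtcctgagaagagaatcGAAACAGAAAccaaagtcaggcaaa
The whole window of DDX58 (listed by RefSeq as RIGI), the sister sensor of IFIH1, is also shown. Neither string of letters was found in it, but GAAA is repeated in it at a closer spacing, which the search did not count. Whether the motif has a part in the levels of these genes was not tested.
DDX58, chr9:32526147-32526446, minus strand: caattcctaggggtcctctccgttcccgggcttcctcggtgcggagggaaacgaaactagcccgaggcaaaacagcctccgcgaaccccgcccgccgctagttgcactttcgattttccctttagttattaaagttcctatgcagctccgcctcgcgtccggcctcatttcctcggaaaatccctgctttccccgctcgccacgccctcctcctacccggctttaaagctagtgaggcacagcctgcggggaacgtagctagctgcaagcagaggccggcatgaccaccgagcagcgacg

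In the IFIT1 stretch the matches began 116 and 103 bases before the start, in ISG15 113 and 107 bases before it, and in IFIT5 the most distal and nearest began 45 and 4 bases before it. HERC5, IFI6, IFIT5 and IFIH1 each held 3 matches. Of the 20 tested members with a match, 9 fell with paclitaxel and none rose, and of the 10 with no match in the window 4 fell and none rose. With afatinib 4 of the 20 rose and 2 fell, and 3 of the 10 rose and none fell. Over all tested genes 11.9% fell with paclitaxel, and 9% rose and 10.1% fell with afatinib. These counts are not tests of the motif. Some windows with no match, among them those of DDX58, OAS1 and XAF1, hold GAAA repeated at a closer spacing. The split is therefore by the searched letters and does not separate members with an ISRE from those without.

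MDA-MB-231 cells carried most of the listed genes at a measurable level without added interferon. Levels between genes are compared per transcript length, as RPKM (CPM per kilobase of length) from the lengths in the authors' table. In DMSO 6 of the 44 rows averaged over 10 RPKM, 22 between 1 and 10, 10 between 0.1 and 1, and 6 under 0.1. IFITM3, which blocks virus entry at endosomal membranes, led with 198 RPKM, followed by its paralogue IFITM2 with 55.8, the ubiquitin-like modifier ISG15 with 44.3, IFIT3 with 24.4, IFI6 with 23.3 and DDX58 with 11.7. MX2, OAS1, BST2, TRIM22, IFI44L and RSAD2 were the lowest rows, all under 0.1 RPKM. Neighbours on a chromosome differed widely in level: IFI44 (chr1:78649796-78664078) stood at 6.83 RPKM in DMSO and IFI44L next to it (chr1:78619922-78646145) at 0.0263.

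**Figure D1:**
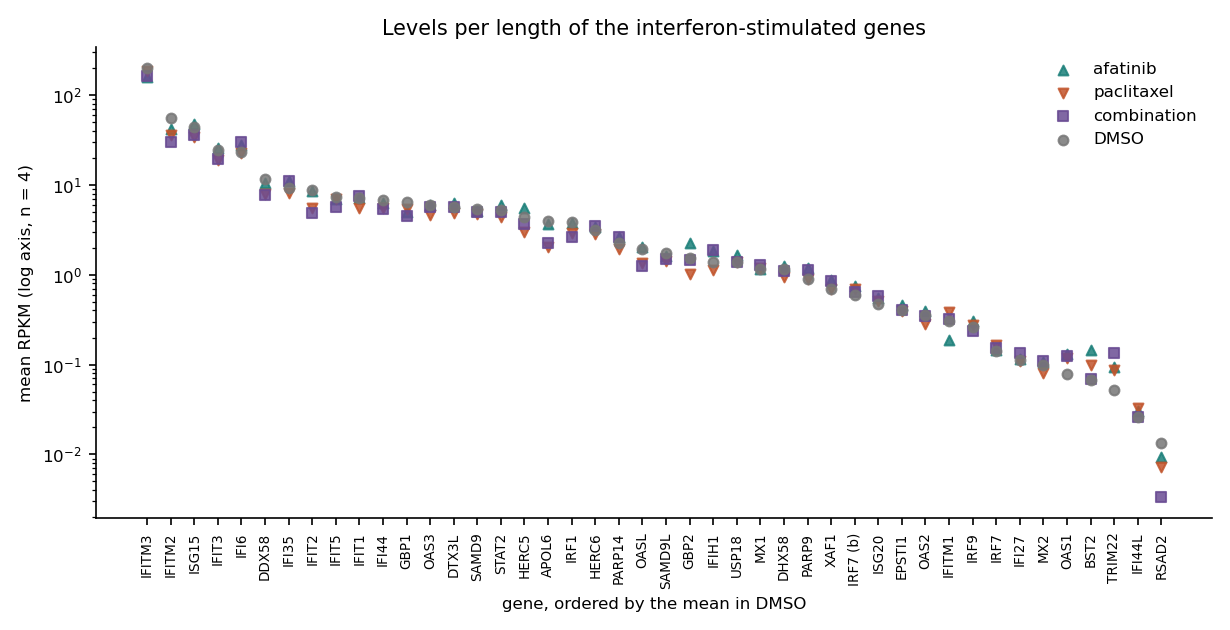
Mean RPKM of each listed gene (log axis; n = 4 libraries a group) for afatinib, paclitaxel, combination and DMSO, ordered by the DMSO mean; IRF7 (b) is the second identifier of IRF7. Levels span from 198 RPKM for IFITM3 to under 0.1 RPKM for 6 rows in DMSO, and the groups lie close together beside that span.

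Against DMSO, the listed genes that changed with paclitaxel all fell, while those that changed with afatinib or with the combination moved in both directions. With paclitaxel 19 of 42 tested rows fell and none rose, where 20.5% of all tested genes changed (8.65% higher, 11.9% lower). With afatinib 9 rose and 3 fell, where 19.1% of all genes changed (9% higher, 10.1% lower). With the combination 7 rose and 14 fell, where 38% of all genes changed (18.5% higher, 19.5% lower). The median log2 fold change of the 42 rows was -0.22 with paclitaxel, 0.11 with afatinib and -0.02 with the combination, and that of all tested genes was 0 in each. A change is counted where the adjusted p of edgeR's quasi-likelihood test was under 0.05, over all genes tested; fold changes are log2 with their standard error. With the authors' concentration-corrected table the split over all genes with paclitaxel was 240 higher and 908 lower, beside 1557 and 2137 here. The 3 comparisons share the DMSO libraries. In these bulk libraries, fewer cells with a transcript and less transcript per cell cannot be told apart. Of the 19 paclitaxel calls 14 held when any of the 16 libraries was left out, as did 8 of the 12 afatinib calls and 15 of the 21 combination calls. Far fewer held under all 9 alternative analyses, which include fits with other concentration terms or none. These were 3 paclitaxel calls, 0 afatinib calls and 5 combination calls.

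**Figure D2:**
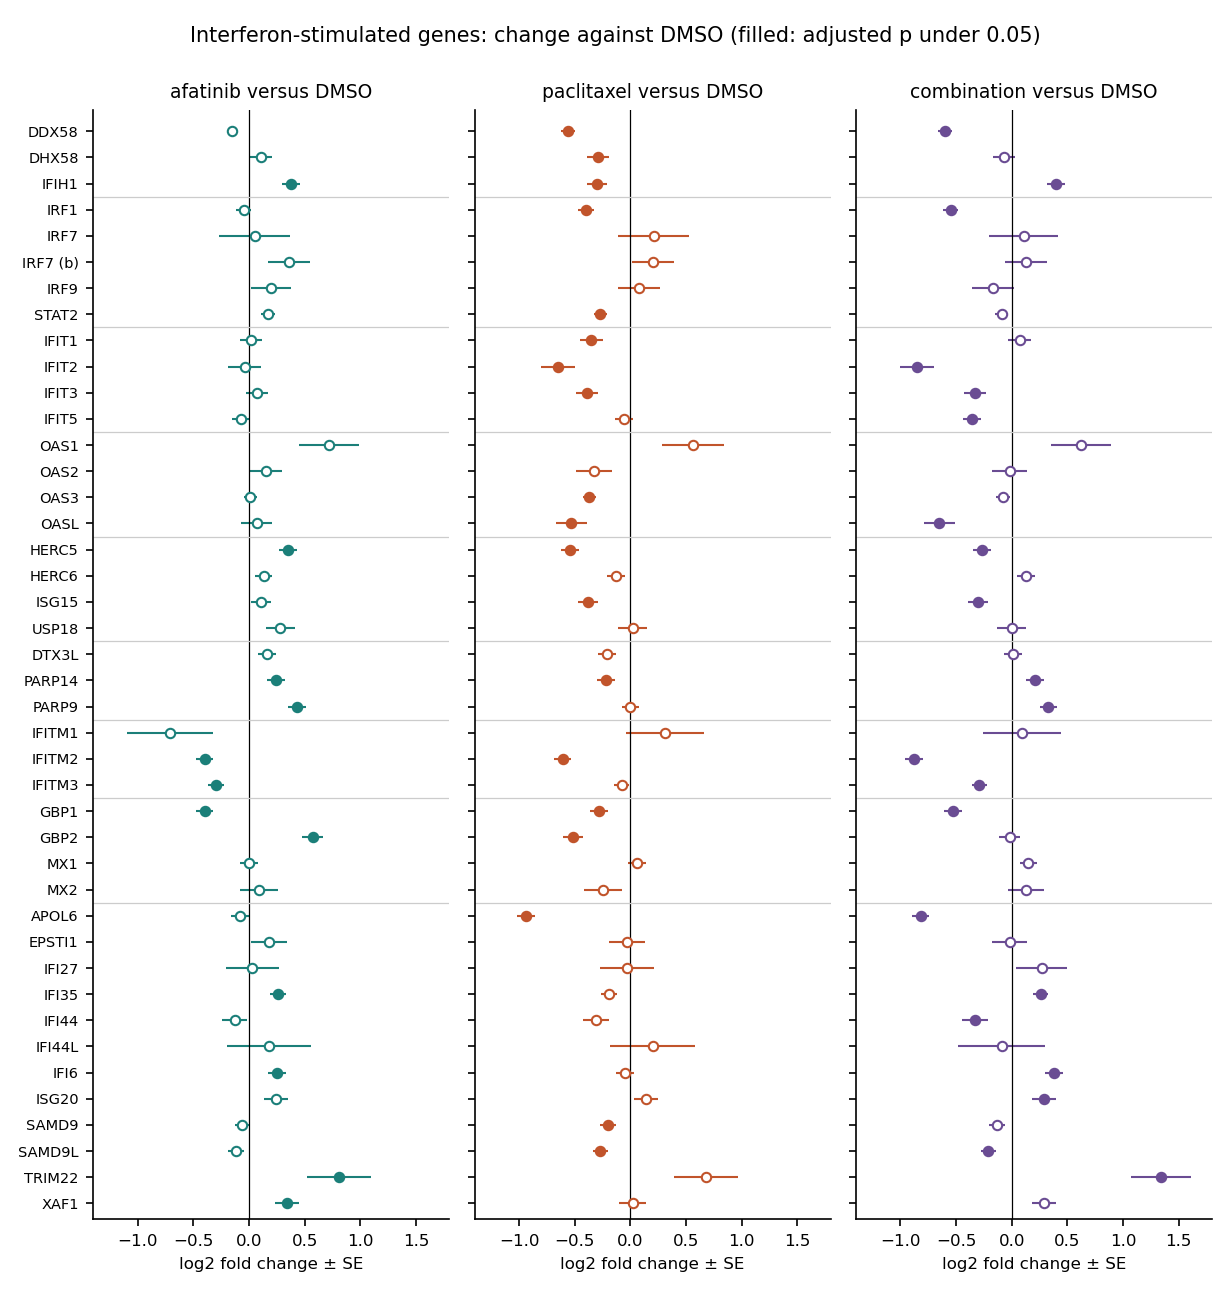
Log2 fold change against DMSO (points) with its standard error (bars) for the 42 tested rows, grouped by role between the horizontal lines; filled points passed adjusted p under 0.05 in edgeR's test (n = 4 libraries a group). All 19 filled points of the paclitaxel panel lie below 0, while the afatinib panel has 9 above and 3 below and the combination panel 7 above and 14 below.

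The RNA sensors fell with paclitaxel, and the sister sensors RIG-I and MDA5 then parted in the combination. DDX58 (ENSG00000107201, chr9:32455705-32526324) encodes RIG-I, which binds short uncapped RNA; IFIH1 (ENSG00000115267, chr2:162267079-162318703) encodes MDA5, which binds long double-stranded RNA. With replicates 1 to 4 in order here and below, DDX58 stood at 43.6, 43.7, 47.0 and 48.4 CPM with afatinib, 30.3, 31.8, 36.6 and 39.8 with paclitaxel, 30.3, 29, 37.3 and 37.8 with the combination, against 46.0, 46.8, 55.0 and 55.3 with DMSO. Every paclitaxel and combination library lay below every DMSO library. The log2 fold change of DDX58 was -0.56 ± 0.06 with paclitaxel (adjusted p = 7.09e-08) and -0.60 ± 0.06 with the combination (adjusted p = 3.51e-09). With afatinib it was -0.15 ± 0.05 (adjusted p = 0.0567; 0.0346 with the replicate number as a block, and 0.0244 to 0.672 over 9 alternatives). IFIH1 stood at 7.97, 7.36, 9.36 and 8.48 CPM with afatinib, 4.45, 4.72, 5.83 and 5.70 with paclitaxel, 6.93, 7.51, 9.69 and 9.76 with the combination, against 6.02, 5.85, 7.13 and 6.45 with DMSO. All afatinib libraries were above and all paclitaxel libraries below the DMSO libraries, and the combination libraries were above those of DMSO within each concentration set. IFIH1 rose by 0.38 ± 0.08 with afatinib (adjusted p = 0.00217) and by 0.40 ± 0.08 with the combination (adjusted p = 0.000408), and fell by 0.30 ± 0.09 with paclitaxel (adjusted p = 0.0143). DHX58, which encodes LGP2, a regulator of both sensors, had a log2 fold change of -0.29 ± 0.10 with paclitaxel (adjusted p = 0.0475). That call was lost when any library but DMSO replicate 2 was left out (adjusted p 0.05 to 0.175).

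Among the transcription factors, IRF1 and STAT2 fell with paclitaxel while IRF7 and IRF9 did not pass the test anywhere against DMSO. IRF1 (ENSG00000125347, chr5:132481609-132490798), an activator induced by interferon gamma, stood at 29.4, 29.6, 28.7 and 28.5 CPM with afatinib, 20.7, 24, 22.6 and 23.8 with paclitaxel, 19.2, 20.1, 20.8 and 22 with the combination, against 28.7, 31.9, 27.5 and 32.3 with DMSO. The paclitaxel and combination libraries did not overlap those of DMSO, and the afatinib libraries lay within their range. IRF1 fell by 0.40 ± 0.07 with paclitaxel (adjusted p = 8.74e-05) and by 0.55 ± 0.07 with the combination (adjusted p = 3.24e-07). In the GENCODE v29 annotation 22% of its exon bases overlap C5orf56 on the opposite strand, and the strand setting of the counting is not given in the sources used here, so part of its counts may belong to that gene. STAT2, a subunit of ISGF3, averaged 36.6 ± 9.16 CPM with afatinib, 26.8 ± 6.25 with paclitaxel, 30.3 ± 6.72 with the combination and 32.1 ± 5.79 with DMSO (SD, n = 4 each). It fell by 0.27 ± 0.06 with paclitaxel (adjusted p = 0.00354). With afatinib its log2 fold change was 0.17 ± 0.06 (adjusted p = 0.0551; 0.0207 with the replicate block, and 0.0207 to 0.84 over 9 alternatives). IRF9, the DNA-binding subunit of ISGF3, averaged 1.16 CPM with afatinib, 1.05 with paclitaxel, 0.896 with the combination and 1.00 with DMSO, and 48.4% of its exon bases overlap another annotated gene. The 2 rows of IRF7, a strong inducer of interferon genes, averaged 0.367 and 1.27 CPM in DMSO, with log2 fold changes between 0.05 and 0.36 in all 3 comparisons; reads may be split between them.

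The IFIT genes, whose proteins bind foreign RNA and block its translation, lie in a row on the plus strand of chromosome 10 from IFIT2 (chr10:89283694-89309276) to IFIT5 (chr10:89414586-89421001). With paclitaxel 3 of the 4 fell, with the combination 3 fell, and with afatinib none passed the test. Over all tested genes 11.9% fell with paclitaxel and 19.5% with the combination, and 19.1% changed with afatinib. In the authors' concentration-corrected table, tested with limma, the paclitaxel calls were lost (IFIT2 -0.49, adjusted p = 0.0842; IFIT3 -0.30, 0.115; IFIT1 -0.24, 0.144), as was that of IFIT3 with the combination (-0.24, 0.155). IFIT2 stood at 35.4, 24.6, 28.7 and 30.2 CPM with afatinib, 20.9, 17.8, 20.5 and 18.6 with paclitaxel, 19.6, 11.6, 17.9 and 19.0 with the combination, against 35.0, 26.9, 33.4 and 26.9 with DMSO. Paclitaxel and combination libraries were all below the lowest DMSO library, and combination replicate 2 was the lowest of all. IFIT2 fell by 0.65 ± 0.15 with paclitaxel (adjusted p = 0.00593) and by 0.85 ± 0.15 with the combination (adjusted p = 0.000348). IFIT3, a partner that stabilises IFIT1 on RNA, fell by 0.39 ± 0.10 with paclitaxel and by 0.33 ± 0.10 with the combination (adjusted p = 0.012 and 0.0175). Its paclitaxel call was lost without DMSO replicate 3 (adjusted p = 0.0571) or paclitaxel replicate 2 (0.0521), and its combination call without combination replicate 2 (0.0764), DMSO replicate 1 (0.0825) or DMSO replicate 3 (0.0794). IFIT1 and IFIT5 showed opposite patterns. IFIT1 stood at 38.0, 31.5, 33.0 and 30.9 CPM with afatinib, 28.1, 24.1, 27.4 and 23.1 with paclitaxel, 40.5, 30.8, 36.2 and 30.0 with the combination, against 36.7, 32.9, 35.0 and 26.6 with DMSO. Its paclitaxel libraries were the lowest, with an overlap at DMSO replicate 4, and its afatinib and combination libraries spread over the DMSO range and above it. It fell by 0.35 ± 0.10 with paclitaxel (adjusted p = 0.0125; lost without DMSO replicate 3 at 0.0566 or paclitaxel replicate 2 at 0.0559), and its log2 fold change with the combination was 0.07 ± 0.10 (95% interval -0.13 to 0.27). IFIT5 stood at 28.3, 30.9, 26.1 and 25.9 CPM with afatinib, 25.3, 29.6, 30.3 and 26.7 with paclitaxel, 22.5, 21.6, 23.3 and 23.6 with the combination, against 27.8, 33.5, 29 and 26.2 with DMSO. Only its combination libraries stood below those of DMSO without overlap. IFIT5 fell by 0.36 ± 0.08 with the combination (adjusted p = 0.000587), and its log2 fold change was -0.06 ± 0.08 with paclitaxel and -0.07 ± 0.08 with afatinib.

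**Figure D3:**
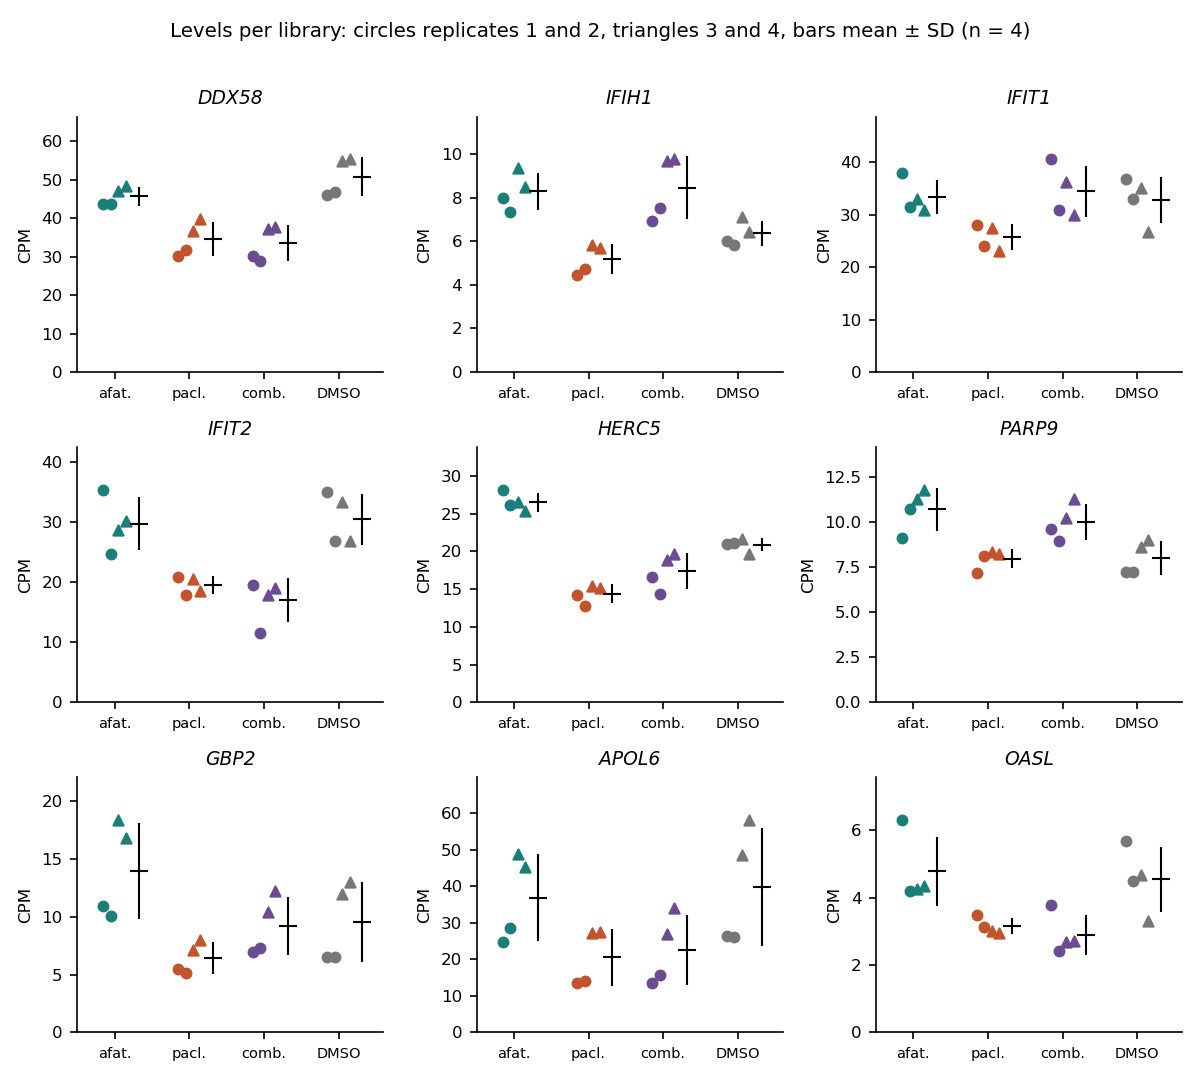
CPM of 9 listed genes in every library, with circles for replicates 1 and 2, triangles for replicates 3 and 4 and bars for mean ± SD (n = 4). DDX58 and IFIT2 are below DMSO in all paclitaxel and combination libraries, HERC5 is above DMSO in all afatinib libraries, and GBP2 and APOL6 differ between the circles and the triangles within each group.

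The OAS genes encode sensors of double-stranded RNA that make the activator of RNase L, apart from OASL, which lacks that activity and enhances RIG-I signalling. OAS3 and OASL fell with paclitaxel, and OASL fell with the combination. OASL stood at 6.31, 4.19, 4.27 and 4.34 CPM with afatinib, 3.49, 3.14, 3.00 and 2.96 with paclitaxel, 3.78, 2.42, 2.67 and 2.72 with the combination, against 5.67, 4.49, 4.67 and 3.32 with DMSO. The paclitaxel and combination libraries overlapped those of DMSO at DMSO replicate 4, the lowest of its group. OASL fell by 0.53 ± 0.14 with paclitaxel (adjusted p = 0.00947) and by 0.65 ± 0.14 with the combination (adjusted p = 0.000748). Its paclitaxel change was -0.40 (adjusted p = 0.064) with the log2 concentration as a covariate and -0.24 (0.312) in the authors' corrected table with limma, where its combination change was -0.40 (0.0733). OAS3, the highest of the 4 per length, averaged 49.5 ± 1.96 CPM with afatinib, 38.0 ± 2.22 with paclitaxel, 46.4 ± 4.91 with the combination and 49.1 ± 1.96 with DMSO (SD, n = 4 each). All its paclitaxel libraries lay below all DMSO libraries, and it fell by 0.37 ± 0.06 (adjusted p = 0.000171). With the combination the log2 fold change of OAS3 was -0.08 ± 0.06 (adjusted p = 0.325). OAS1 was detected at 0.508 ± 0.0551 CPM with afatinib and 0.308 ± 0.0239 with DMSO (SD, n = 4 each), 11 to 27 counts a library over all groups. Its log2 fold change with afatinib was 0.72 ± 0.27 (adjusted p = 0.0614; 0.0493 with the replicate block, and 0.0493 to 0.386 over 9 alternatives). OAS2 did not pass the test against DMSO.

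ISG15 and the enzymes of its conjugation followed several patterns. HERC5 (ENSG00000138646, chr4:88457117-88506163), the main ligase that attaches ISG15 to new proteins, was the member that rose with afatinib and fell with both other treatments. It stood at 28.2, 26.2, 26.5 and 25.3 CPM with afatinib, 14.2, 12.7, 15.4 and 15.1 with paclitaxel, 16.6, 14.4, 18.9 and 19.6 with the combination, against 21.0, 21.1, 21.7 and 19.7 with DMSO. No group overlapped DMSO, with afatinib above it and the other treatments below it. HERC5 rose by 0.35 ± 0.08 with afatinib (adjusted p = 0.00227), and fell by 0.54 ± 0.08 with paclitaxel (adjusted p = 1.84e-05) and by 0.27 ± 0.08 with the combination (adjusted p = 0.00744; 0.0709 without combination replicate 2). ISG15 itself averaged 44.9 ± 9.3 CPM with afatinib, 31.9 ± 6.86 with paclitaxel, 33.9 ± 6.59 with the combination and 41.7 ± 8.91 with DMSO (SD, n = 4 each). It fell by 0.38 ± 0.09 with paclitaxel (adjusted p = 0.00312) and by 0.30 ± 0.09 with the combination (adjusted p = 0.00835), with libraries that overlapped DMSO. ISG15 was 0.45 ± 0.06 lower on the log2 scale in the low than in the high concentration set (adjusted p = 7.39e-07). With the log2 concentration as a covariate its paclitaxel change was -0.16 (adjusted p = 0.296) and its combination change -0.08 (adjusted p = 0.608). HERC6, the neighbour of HERC5, and USP18, the protease that removes ISG15 and dampens the receptor, did not pass the test against DMSO.

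PARP9, DTX3L and PARP14 sit close together on chromosome 3; PARP9 and DTX3L form an ADP-ribosylation and ubiquitin ligase complex, and PARP14 is an ADP-ribosyltransferase. PARP9 (ENSG00000138496, chr3:122527924-122564577) stood at 9.12, 10.7, 11.3 and 11.8 CPM with afatinib, 7.19, 8.11, 8.35 and 8.22 with paclitaxel, 9.64, 8.93, 10.2 and 11.3 with the combination, against 7.21, 7.23, 8.62 and 8.98 with DMSO. All afatinib libraries were above all DMSO libraries, the combination overlapped by 1 library, and paclitaxel lay within the DMSO range except for its lowest library. PARP9 rose by 0.43 ± 0.08 with afatinib (adjusted p = 0.000468) and by 0.33 ± 0.08 with the combination (adjusted p = 0.00201), and its log2 fold change with paclitaxel was 0 ± 0.08 (95% interval -0.17 to 0.17). PARP14 stood at 22.1, 27.8, 32.9 and 28.8 CPM with afatinib, 15.3, 19.8, 22.6 and 23.7 with paclitaxel, 22.7, 24.4, 31.5 and 31.1 with the combination, against 20.3, 21.7, 26.1 and 26.4 with DMSO. The afatinib and combination libraries were above, and the paclitaxel libraries below, those of DMSO within each concentration set, while the groups overlapped across sets. Its log2 fold changes were 0.24 ± 0.08 with afatinib, -0.22 ± 0.08 with paclitaxel and 0.21 ± 0.08 with the combination (adjusted p = 0.0293, 0.045 and 0.0323). Leaving out afatinib replicate 2 or 3, or else DMSO replicate 1, 3 or 4, ended the afatinib call (adjusted p 0.0557 to 0.158), the combination's was lost without combination replicate 2, 3 or 4 or DMSO replicate 1, 3 or 4 (0.0517 to 0.079), and paclitaxel's without any of 10 libraries, namely all DMSO libraries, paclitaxel replicates 1, 3 and 4, combination replicates 1 and 2 and afatinib replicate 3 (0.0501 to 0.203). DTX3L, whose first exons overlap those of PARP9 on the opposite strand, had log2 fold changes of 0.16 ± 0.08 with afatinib, -0.21 ± 0.08 with paclitaxel and 0.01 ± 0.08 with the combination. None passed the test, while with the replicate block afatinib (adjusted p = 0.0239; 0.0239 to 0.694 over 9 alternatives) and paclitaxel (0.00347; 0.00347 to 0.43) did.

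The IFITM genes lie within a short stretch of chromosome 11 and encode closely related membrane proteins, so reads may be shared between them. In the annotation 22.7% of the exon bases of IFITM2 and 32.5% of those of IFITM1 overlap each other. IFITM2 (ENSG00000185201, chr11:307631-315272) stood at 75.2, 74.2, 52.5 and 59.8 CPM with afatinib, 58.9, 57.1, 49.8 and 58.6 with paclitaxel, 50.1, 55.5, 38.1 and 43.5 with the combination, against 89.4, 107, 67.5 and 80.5 with DMSO. Paclitaxel and combination libraries were below every DMSO library, and afatinib libraries were below those of DMSO within each concentration set. IFITM2 fell by 0.40 ± 0.08 with afatinib (adjusted p = 0.00107), by 0.61 ± 0.08 with paclitaxel (7.45e-06) and by 0.88 ± 0.08 with the combination (7.75e-09). IFITM3 stood at 252, 234, 181 and 198 CPM with afatinib, 272, 256, 219 and 255 with paclitaxel, 237, 235, 187 and 213 with the combination, against 274, 319, 215 and 257 with DMSO. Afatinib and combination libraries were below those of DMSO within each set. IFITM3 fell by 0.30 ± 0.07 with afatinib (adjusted p = 0.00303) and by 0.29 ± 0.07 with the combination (0.00196), and its log2 fold change with paclitaxel was -0.08 ± 0.07 (0.454). On the opposite strand AC136475.5 overlaps 21.3% of the exon bases of IFITM3, so part of its counts may belong to that gene. IFITM1, with 4 to 22 counts a library, did not pass the test against DMSO.

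The interferon-inducible GTPases GBP1 and GBP2, neighbours on chromosome 1 whose proteins attack the membranes of intracellular pathogens, moved apart with afatinib. GBP1 stood at 25.6, 21.6, 28.2 and 23.3 CPM with afatinib, 28.2, 25.1, 27.5 and 25.9 with paclitaxel, 23.5, 19.3, 23.6 and 24.2 with the combination, against 31.2, 29.2, 34.1 and 35.9 with DMSO. Every treated library lay below every DMSO library. GBP1 fell by 0.40 ± 0.08 with afatinib (adjusted p = 0.000506), by 0.28 ± 0.08 with paclitaxel (0.00801) and by 0.53 ± 0.08 with the combination (4.32e-06). GBP2 (chr1:89106132-89150456) stood at 10.9, 10.1, 18.4 and 16.8 CPM with afatinib, 5.51, 5.10, 7.16 and 8.03 with paclitaxel, 7, 7.29, 10.4 and 12.2 with the combination, against 6.54, 6.56, 12.0 and 13.0 with DMSO. Replicates 3 and 4 were higher than 1 and 2 in every group, and within each set afatinib lay above and paclitaxel below DMSO. GBP2 rose by 0.57 ± 0.09 with afatinib (adjusted p = 4.21e-05) and fell by 0.52 ± 0.09 with paclitaxel (0.00016), and its log2 fold change with the combination was -0.02 ± 0.09 (0.878). The GBP genes are similar in sequence, and 9.89% of the exon bases of GBP2 overlap GBP7. MX1 and MX2, dynamin-like antiviral GTPases, did not pass the test in any of these comparisons; for MX1 the 95% interval with afatinib was -0.17 to 0.16.

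Of the other effectors, 12 of 13 were tested. With afatinib 4 rose (33.3% changed, against 19.1% of all genes), with paclitaxel 3 fell (25% against 20.5%), and with the combination 4 rose and 3 fell (58.3% against 38%). APOL6 (ENSG00000221963, chr22:35648395-35668409), an apolipoprotein L linked to cell death, stood at 24.7, 28.5, 48.9 and 45.4 CPM with afatinib, 13.5, 14.2, 27.3 and 27.5 with paclitaxel, 13.5, 15.8, 26.9 and 34.1 with the combination, against 26.3, 26.2, 48.6 and 58.2 with DMSO. The low concentration set was higher in every group, and within each set paclitaxel and the combination lay below DMSO. APOL6 fell by 0.94 ± 0.08 with paclitaxel (adjusted p = 7.57e-09) and by 0.82 ± 0.08 with the combination (6.88e-09). Its log2 fold change with afatinib was -0.08 ± 0.08 (0.51). TRIM22, a ubiquitin ligase that restricts viruses, was read by only 8 to 37 counts a library. It stood at 0.258, 0.582, 0.809 and 0.591 CPM with afatinib, 0.292, 0.427, 0.615 and 0.778 with paclitaxel, 0.760, 0.690, 0.890 and 0.860 with the combination, against 0.183, 0.379, 0.303 and 0.405 with DMSO. The combination libraries were the only group wholly above DMSO. TRIM22 rose by 1.34 ± 0.27 with the combination (adjusted p = 0.000296). With afatinib it rose by 0.81 ± 0.29 (adjusted p = 0.0486), a call that held only without afatinib replicate 1, DMSO replicate 2 or paclitaxel replicate 1 and was lost without any other library (0.0503 to 0.163).

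IFI6, a mitochondrial and endoplasmic reticulum protein that restrains cell death, stood at 20.3, 20.1, 26.5 and 28.9 CPM with afatinib, 17.1, 14.6, 24.1 and 21.9 with paclitaxel, 21.4, 22.4, 26.9 and 33.6 with the combination, against 16.9, 16.5, 20.2 and 27.1 with DMSO. Groups overlapped across sets, and both afatinib and the combination were above DMSO in the high set. IFI6 rose by 0.38 ± 0.08 with the combination (adjusted p = 0.000655) and by 0.25 ± 0.08 with afatinib (0.0311). Leaving out afatinib replicate 1, 2 or 4, or else DMSO replicate 1, 2 or 3, ended the afatinib call (0.0571 to 0.128). With the log2 concentration as a covariate its combination change was 0.14 (adjusted p = 0.382) and its afatinib change 0.14 (0.472). In the authors' corrected table with limma these were 0.19 (0.274) and 0.18 (0.459). IFI35, a partner of NMI in innate signalling, stood at 24.8, 24.6, 19.0 and 18.7 CPM with afatinib, 18.9, 17.0, 14.8 and 12.9 with paclitaxel, 24.6, 27.2, 19.6 and 16.3 with the combination, against 19.5, 21.2, 16.0 and 15.8 with DMSO. Within each set afatinib and the combination lay above DMSO and paclitaxel below it. IFI35 rose by 0.26 ± 0.07 with afatinib (adjusted p = 0.0114) and by 0.26 ± 0.07 with the combination (0.00483). With paclitaxel its log2 fold change was -0.19 ± 0.07 (0.0727; 0.0373 with the replicate block, and 0.0373 to 0.992 over 9 alternatives). XAF1, a pro-apoptotic antagonist of XIAP, stood at 5.18, 4.54, 6.22 and 7.37 CPM with afatinib, 4.16, 4.93, 4.33 and 4.92 with paclitaxel, 5.49, 4.81, 5.94 and 6.09 with the combination, against 3.89, 3.57, 5.68 and 5.34 with DMSO. The high set of afatinib and of the combination lay above that of DMSO, and in the low set both also lay above it. XAF1 rose by 0.34 ± 0.11 with afatinib (adjusted p = 0.0375; 0.0595 to 0.17 when afatinib replicate 1, 3 or 4, or else DMSO replicate 1 or 2, was left out). With the combination its log2 fold change was 0.29 ± 0.11 (adjusted p = 0.0501; 0.0381 with the replicate block, and 0.0381 to 0.569 over 9 alternatives). On the opposite strand PRAL overlaps 38.3% of its exon bases.

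ISG20, an exonuclease of single-stranded RNA, stood at 4.2, 4.03, 4.30 and 3.80 CPM with afatinib, 4.09, 3.78, 4.09 and 3.22 with paclitaxel, 4.04, 4.93, 4.14 and 3.76 with the combination, against 3.27, 3.88, 3.20 and 3.51 with DMSO. The combination overlapped DMSO only at DMSO replicate 2. ISG20 rose by 0.29 ± 0.11 with the combination (adjusted p = 0.0398), lost without combination replicate 2 or 3 or DMSO replicate 1 or 3 (0.0813 to 0.155). SAMD9 and SAMD9L, paired restriction factors on chromosome 7, fell with paclitaxel by 0.20 ± 0.07 (adjusted p = 0.0412) and 0.27 ± 0.07 (0.0089). The SAMD9 call was lost without combination replicate 1, DMSO replicate 1, 3 or 4, or paclitaxel replicate 1, 3 or 4 (0.0517 to 0.173). SAMD9L fell by 0.21 ± 0.07 with the combination (adjusted p = 0.0204; 0.0619 to 0.0677 without combination replicate 1 or DMSO replicate 3 or 4). IFI44 fell by 0.33 ± 0.12 with the combination (adjusted p = 0.0277; 0.179 without combination replicate 2 and 0.148 without DMSO replicate 1). With paclitaxel its log2 fold change was -0.31 ± 0.12 (adjusted p = 0.0641; 0.00501 with the replicate block, and 0.00183 to 0.314 over 9 alternatives). EPSTI1, IFI27 and IFI44L did not pass the test.

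The single drugs were also compared with each other; all 16 libraries enter that fit and share its estimate of the spread. With afatinib against paclitaxel 23 of 42 rows were higher and 2 lower, where 36% of all genes changed (18.9% higher, 17.1% lower), and the median log2 fold change was 0.31 against 0 for all genes. GBP2 was 1.10 ± 0.09 higher on the log2 scale with afatinib than with paclitaxel (adjusted p = 2.25e-09), HERC5 0.89 ± 0.08 (7.45e-09), APOL6 0.86 ± 0.08 (1.25e-08) and IFIH1 0.68 ± 0.09 (1.16e-06). Afatinib libraries lay above all paclitaxel libraries for GBP2, HERC5 and IFIH1, and within each set for APOL6. The lower rows were IFITM1 (-1.02 ± 0.38, adjusted p = 0.0404) and IFITM3 (-0.22 ± 0.07, 0.0147). Leaving out afatinib replicate 1 or 4, or else paclitaxel replicate 2, 3 or 4, ended the IFITM1 call (0.0863 to 0.15), and the IFITM3 call ended without afatinib replicate 3 or paclitaxel replicate 4 (0.0744 and 0.0898). The HERC6 call needed afatinib replicate 1 (0.0544 without it), and that of OAS2 each of afatinib replicates 1 and 2 and paclitaxel replicate 2 (0.0646 to 0.104). That of XAF1 was lost without afatinib replicate 1 or 4 or paclitaxel replicate 1, 3 or 4 (0.0516 to 0.151), and that of IFITM2 without afatinib replicate 1, 2 or 4, combination replicate 1 or paclitaxel replicate 1, 2 or 3 (0.0532 to 0.156). Calls of DDX58, GBP2, HERC5, IFIH1 and OAS3 held under all 9 alternatives and without any library.

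The combination was then set against each single drug. Against afatinib alone, 12 of 42 rows were lower and none higher, where 27.4% of all genes changed (13.1% higher, 14.3% lower). The largest falls were in IFIT2 (-0.81 ± 0.15, adjusted p = 0.00086), APOL6 (-0.74 ± 0.08, 9.62e-08), OASL (-0.72 ± 0.14, 0.000416), HERC5 (-0.62 ± 0.08, 1.21e-06) and GBP2 (-0.59 ± 0.09, 9.83e-06). All combination libraries of IFIT2, OASL and HERC5 lay below all afatinib libraries. All 12 calls held without any of the libraries. DTX3L was -0.15 ± 0.08 (adjusted p = 0.158; 0.0257 with the replicate block, and 0.0257 to 0.512 over 9 alternatives). Against paclitaxel alone, 12 rows were higher and 4 lower, where 24.2% of all genes changed (12.6% higher, 11.6% lower). IFIH1 was 0.71 ± 0.09 higher (adjusted p = 1.8e-06), GBP2 0.50 ± 0.09 (0.000228), IFI35 0.45 ± 0.07 (5.91e-05), IFI6 0.43 ± 0.08 (0.000383) and PARP14 0.43 ± 0.08 (0.000211). IFIT5 (-0.30 ± 0.08, 0.00576), IFITM2 (-0.27 ± 0.08, 0.0166), GBP1 (-0.24 ± 0.08, 0.022) and IFITM3 (-0.20 ± 0.07, 0.034) were lower. The calls of IFITM2 (without combination replicate 1 or 3 or paclitaxel replicate 4), GBP1 (without combination replicate 2 or paclitaxel replicate 1) and IFITM3 (without combination replicate 1, 2 or 3 or paclitaxel replicate 1 or 4) were lost, at adjusted p 0.0519 to 0.176. Among the 12 higher rows HERC6 was lost without paclitaxel replicate 4 (0.069), HERC5 without combination replicate 4 (0.0564) or paclitaxel replicate 2 (0.0563), and DTX3L without combination replicate 2 or 3 or paclitaxel replicate 1 or 4 (0.117 to 0.192). STAT2 was lost without afatinib replicate 3, combination replicate 1, 2 or 4 or paclitaxel replicate 1, 2 or 3 (0.0506 to 0.19). TRIM22 was 0.65 ± 0.25 (adjusted p = 0.0596; 0.0388 with the replicate block, and 0.0388 to 0.524 over 9 alternatives). Of the 19 members that fell with paclitaxel, 11 also fell with the combination (APOL6, DDX58, GBP1, HERC5, IFIT2, IFIT3, IFITM2, IRF1, ISG15, OASL and SAMD9L), 2 rose (IFIH1 and PARP14) and 6 did not pass the test (DHX58, GBP2, IFIT1, OAS3, SAMD9 and STAT2). Both comparisons use the same DMSO libraries and both include paclitaxel, so shared falls are likely for any list. Over all tested genes 19.5% fell and 18.5% rose with the combination. The share among all genes that fell with paclitaxel was not counted, so the 11 cannot be called particular to these members.

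**Figure D4:**
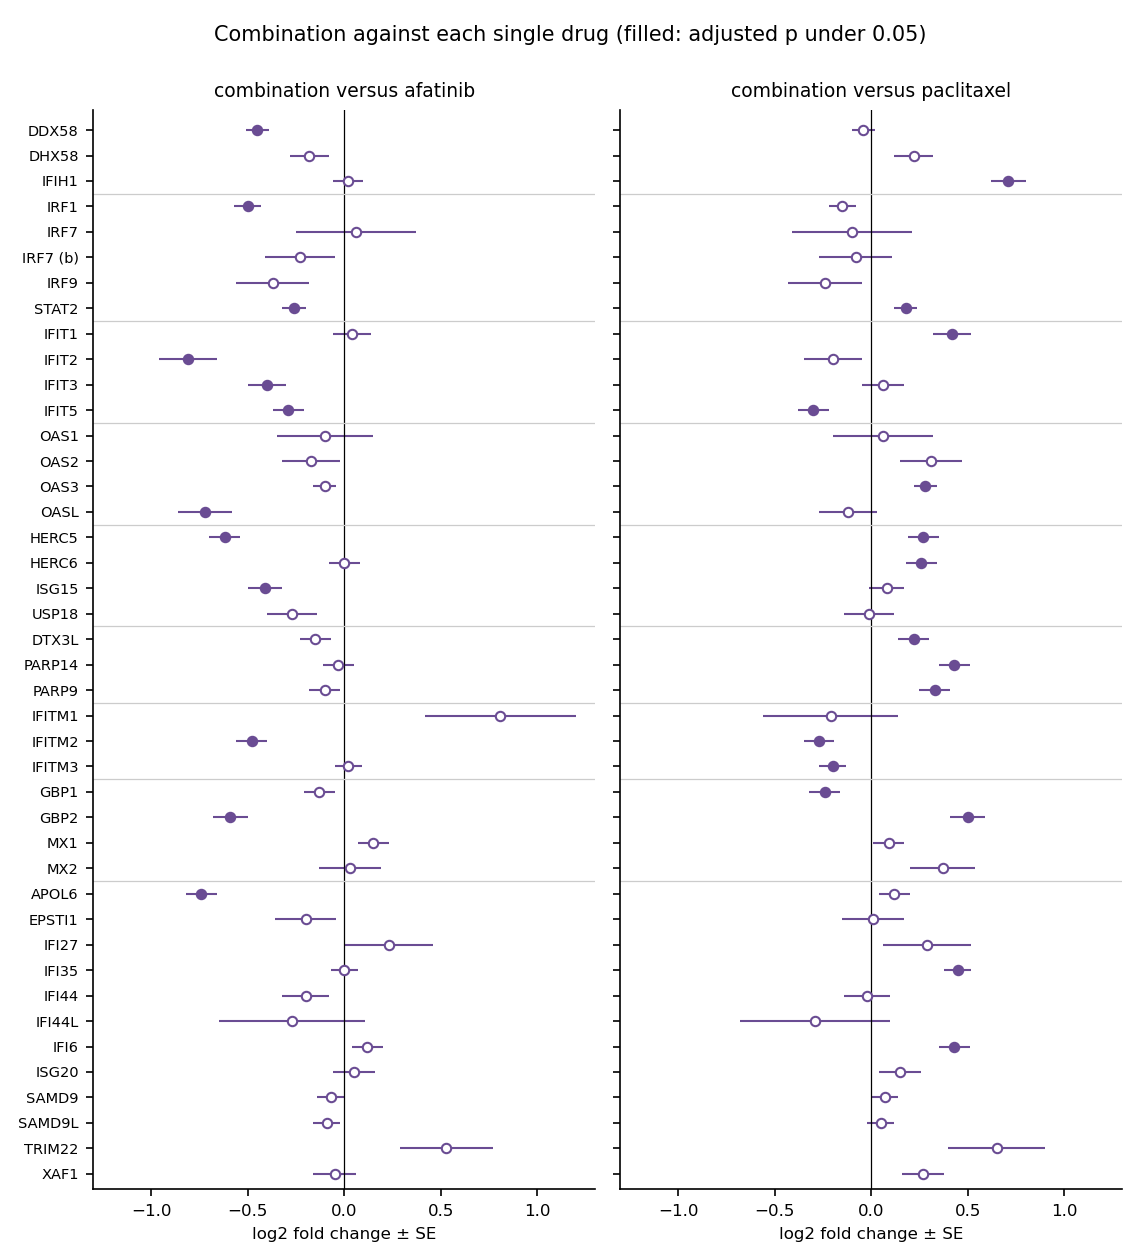
Log2 fold change (points) with its standard error (bars) of the combination against afatinib and against paclitaxel for the 42 tested rows, filled where adjusted p was under 0.05 (n = 4 libraries a group). Against afatinib all 12 filled points lie below 0, and against paclitaxel 12 lie above and 4 below.

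Whether the combination departs from the sum of both drugs on the log2 scale was tested as an interaction. By edgeR's quasi-likelihood test 0 of 42 rows passed, where 0.884% of all genes did; 4 rows had an unadjusted p under 0.05, and DESeq2 also called 0. These were IFIT1 (0.39 ± 0.14, adjusted p = 0.199), IFIH1 (0.33 ± 0.12, 0.226), OAS3 (0.27 ± 0.09, 0.174) and IFIT5 (-0.23 ± 0.11, 0.379). IFIT1 passed with the replicate block (adjusted p = 0.00727) and with no filter on low counts (0.00516), and ranged from 0.00516 to 1 over 9 alternatives. A test that misses the threshold does not show that the effects add.

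The concentration sets gave a comparison inside each group, since they share no library. Between the low and the high set, over all groups, 18 of 42 rows were higher and 7 lower, where 69.5% of all genes changed (36.2% higher, 33.3% lower). IRF9 was 0.98 ± 0.13 higher on the log2 scale in the low set, APOL6 0.97 ± 0.06 and GBP2 0.72 ± 0.06, and USP18 was 0.63 ± 0.09 and ISG15 0.45 ± 0.06 lower. The log2 fold changes against DMSO had the same sign in both sets for 31 of 42 rows with afatinib, 31 with paclitaxel and 34 with the combination, with Pearson's r of 0.68, 0.69 and 0.86 across the 42 rows, which share libraries and are not independent. All 12, 19 and 21 called rows had the same sign in both sets. These rows were called over the libraries of both sets together, which makes equal signs likely, so their signs are no separate check. A test of whether drug effects differ between sets called 0 members and 0 of all genes in every comparison (lowest adjusted p of a member 0.801), with 2 libraries a cell. With the log2 concentration in place of the set, the afatinib calls of IFI6, IFITM3, TRIM22, XAF1 and PARP14, the paclitaxel calls of ISG15 and OASL, and the combination calls of ISG15, IFI6, IFI44, IFITM3, PARP9 and PARP14 were lost. GBP2 (-0.39, adjusted p = 0.00682), STAT2 (-0.37, 0.00243), IRF9 (-0.66, 0.0366) and SAMD9 (-0.36, 0.00218) then fell with the combination. In the authors' corrected table with limma, afatinib kept the calls of PARP9 and GBP1 and lost the other 10. With paclitaxel ISG15, GBP1, IFIT1, IFIT2, IFIT3, IFITM2, OASL, DHX58, PARP14 and IRF1 were lost there, and with the combination ISG15, IFI6, IFI44, IFIT3, IFITM3, OASL, ISG20, PARP14 and HERC5. The calls that held under all 9 alternatives and without any library were DDX58, HERC5 and OAS3 with paclitaxel and DDX58, GBP1, IFITM2, IRF1 and TRIM22 with the combination, and no call with afatinib did.

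**Figure D5:**
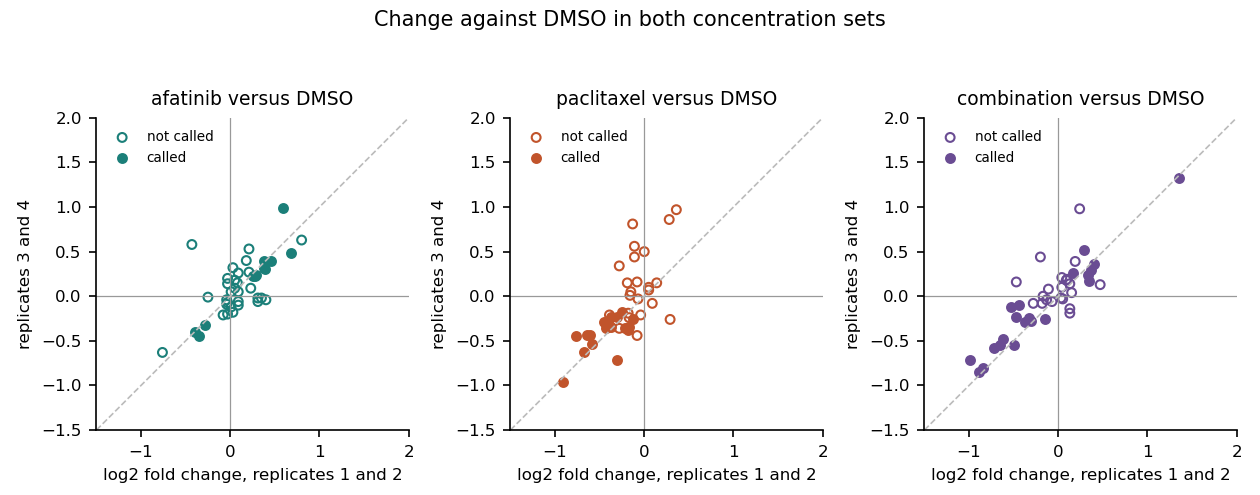
Log2 fold change against DMSO in replicates 3 and 4 (vertical axis) against that in replicates 1 and 2 (horizontal axis) for the 42 tested rows, filled where the test over all libraries passed; the dashed line marks equal values. Filled points have the same sign in both sets, which their call over the libraries of both sets makes likely. Pearson's r over the 42 rows is 0.68 for afatinib, 0.69 for paclitaxel and 0.86 for the combination.

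Genes around the listed ones in the pathway were read from separate lists. Of interferon and receptor genes 8 of 14 listed symbols were in the table and 6 were tested, all of them receptor chains. IFNL1 and IFNK, in the table but not tested, stayed under 0.1 CPM in every library; the other interferon genes listed were not analysed here. IFNAR2, a chain of the type I receptor, stood at 10.4, 10.3, 12.7 and 11.8 CPM with afatinib, 6.81, 7.77, 8.84 and 8.92 with paclitaxel, 8.33, 9.21, 10.2 and 11.1 with the combination, against 9.36, 9.62, 11.1 and 11.9 with DMSO. Its paclitaxel libraries lay below all DMSO libraries, and it fell by 0.38 ± 0.08 (adjusted p = 0.000735). IFNAR1, the other chain, fell by 0.17 ± 0.06 with afatinib (0.0408) and 0.16 ± 0.06 with the combination (0.0272). IFNGR1, the ligand-binding chain for interferon gamma, rose by 0.37 ± 0.07 with the combination (0.000215), as did IL10RB, shared by type III interferon and IL-10 receptors, by 0.25 ± 0.07 (0.00578).

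Of 12 signalling genes 1 rose and 3 fell with paclitaxel, 2 rose and 3 fell with the combination, and 1 rose with afatinib. The shares called, 33.3%, 41.7% and 8.33%, stand beside 20.5%, 38% and 19.1% of all genes. Those that fell with paclitaxel included IRF2 (-0.51 ± 0.09, adjusted p = 0.000362), a repressor that competes with IRF1, and PIAS1 (-0.19 ± 0.06, 0.0336), an inhibitor of STAT signalling. PTPN6, a phosphatase that dampens JAK signalling, rose with each treatment (0.74 ± 0.16 with afatinib, 0.70 ± 0.16 with paclitaxel and 0.71 ± 0.16 with the combination). Of 17 tested sensors and adaptors outside the 43 symbols, 1 rose and 2 fell with afatinib, 1 rose and 4 fell with paclitaxel, and 1 rose and 5 fell with the combination. These are 17.6%, 29.4% and 35.3% of the list, near the 19.1%, 20.5% and 38% of all genes. TRIM25, the ubiquitin ligase known as a cofactor of RIG-I, stood at 80.1, 101, 91.5 and 83.9 CPM with afatinib, 194, 200, 210 and 189 with paclitaxel, 78.1, 71.0, 92.7 and 94.0 with the combination, against 213, 203, 207 and 202 with DMSO. Both groups with afatinib lay far below DMSO. TRIM25 fell by 1.21 ± 0.08 with afatinib (adjusted p = 1.98e-10) and by 1.3 ± 0.08 with the combination (3.32e-12), while its log2 fold change with paclitaxel was -0.06 ± 0.07 (0.659). IFI16, a DNA sensor, rose in all 3 comparisons, by 0.15 ± 0.05 with afatinib, 0.25 ± 0.05 with paclitaxel and 0.58 ± 0.05 with the combination (adjusted p = 0.0322, 0.000622 and 1.28e-09). SAMHD1, a nucleotide triphosphatase that limits viral DNA synthesis, fell by 0.66 ± 0.06 with paclitaxel (1.73e-08) and by 0.54 ± 0.06 with the combination (5.63e-08).

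A further 37 tested interferon-stimulated genes that are not among the 43 gave 6 rises and 4 falls with afatinib, 1 rise and 11 falls with paclitaxel, and 6 rises and 8 falls with the combination. These are 27%, 32.4% and 37.8% of the list, beside 19.1%, 20.5% and 38% of all genes. Their median log2 fold changes were -0.03, -0.14 and 0. With paclitaxel TRIM5, a capsid restriction factor, fell by 0.53 ± 0.07 (adjusted p = 3.28e-06), SHISA5 by 0.43 ± 0.07 (3.71e-05), TRANK1 by 0.55 ± 0.10 (0.00036) and APOL1, a relative of APOL6, by 0.46 ± 0.10 (0.00219). CD274, which encodes PD-L1, fell by 0.78 ± 0.08 with afatinib (3.62e-07) and by 0.94 ± 0.08 with the combination (1.38e-09). UBA7, the activating enzyme for ISG15, and UBE2L6, its conjugating enzyme, rose with afatinib by 0.52 ± 0.10 (0.000716) and 0.35 ± 0.08 (0.00405). WARS, a tryptophan tRNA synthetase induced by interferon gamma, was the gene of this list with an interaction (0.41 ± 0.09, adjusted p = 0.0333). Antigen presentation genes gave 27 tested rows, several of them alternative identifiers of the same HLA genes, of which 1 rose with afatinib, 1 fell with paclitaxel, and 2 rose and 1 fell with the combination, or 3.7%, 3.7% and 11.1% of the rows.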

How the data were processed

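RNA of 16 MDA-MB-231 libraries was sequenced, 4 each with afatinib, paclitaxel, their combination and DMSO, grouped by GEO's labels. Reads were aligned to hg38 with STAR 2.7.5b and counted per gene with featureCounts (Subread 2.0.1), as the submitters' processing notes name them. The annotation release and strand setting are not given in the sources used here. The authors deposited raw counts per gene, used for every main test, and a table of log2 values that they had corrected for RNA concentration, used as an alternative. The treatment protocol also names doxorubicin, which is not analysed here.

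From the counts, genes were filtered with filterByExpr (minimum count 10, minimum total 15), scaled by TMM and tested with edgeR 4.0.16 (robust quasi-likelihood F test, R 4.3.3), with terms for group and concentration set; Benjamini-Hochberg adjusted p under 0.05 over 17991 genes was called. Each standard error is |log2 fold change|/√F. CPM uses TMM-scaled totals; RPKM adds the deposited length. Alternatives used limma 3.58.1 and DESeq2 1.42.0, other filters and concentration terms, and each library left out. The procedure was tested on simulated counts. These held no difference between the concentration sets, so that run does not cover the set differences of the real libraries. Gene positions are from GENCODE v29 (GRCh38).

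Replicate numbers did not pair the samples in the main tests and were used only in the replicate block, an alternative. Same-numbered libraries deviated from their group means together in all 24 pairs (correlation 0.37 to 0.70, median 0.59). Libraries of the same set with the other number did so about as strongly (0.38 to 0.67, median 0.50). With the set means also removed, same-numbered pairs gave 0 to 0.23 (median 0.13). Pairs of the same set with the other number then gave -0.23 to 0 (median -0.13). With 2 libraries a set in each group, these last values mirror those of the same-numbered pairs. Counting error is small at these depths only for genes with many counts. Beside the genes whose counts are given, few counts a library were read for IFI44L (4 to 24), IFI27 (10 to 35), MX2 (22 to 72) and IRF9 (26 to 77). The lower row of IRF7 had 9 to 26. By rule, values are shown per library for 19 members. These were called against DMSO and among the 8 largest changes in a direction in a comparison, or called for the interaction or for the combination against a single drug and among the 5 largest. IFIT1 is shown per library outside this rule and was chosen after its values were seen. Any member may be named with its value. Of the other lists, up to 6 called genes with the smallest p in a comparison are named. The members and lists were chosen with earlier results of these data known. A result of the signalling list is not reported here.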

Additional observations from a re-analysis of the deposited data

Results flagged for a closer look

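The check covered 76 groups of 4 libraries, from the 19 members chosen by rule for per-library values, in 4 groups. Of these, 2 held a library far from the other 3, with a gap to the nearest library, as a share of the group's range, over Dixon's critical value. Chance gives about 1 in 20 such groups. GBP1 in combination replicate 2 was the lowest of its group at 19.3 CPM, with the others at 23.5 to 24.2 (gap 0.857 of the range). OASL in afatinib replicate 1 was the highest of its group at 6.31 CPM, with the others at 4.19 to 4.34 (gap 0.929 of the range). The fall of GBP1 with the combination and that of OASL in the combination against afatinib were called without these libraries too, while GBP1 in the combination against paclitaxel was not called without combination replicate 2 (-0.18, adjusted p = 0.127 in edgeR's test).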

How the results depend on the processing

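Counts of called members, then of all genes, are given for afatinib, paclitaxel and the combination against DMSO, then the combination against afatinib, the combination against paclitaxel, and afatinib against paclitaxel; only those that moved by over 1.5 times are listed. The main counts were 12, 19, 21, 12, 16 and 25 members, and 3432, 3694, 6830, 4935, 4347 and 6479 genes. With no concentration term they were 0, 6, 8, 5, 1 and 11 members and 380, 625, 2310, 1143, 768 and 1654 genes; for afatinib 8 members then had an unadjusted p under 0.05. With the high concentration set only, 6, 7 and 13 members against DMSO, 4 for the combination against paclitaxel and 14 for afatinib against paclitaxel were called, with 1245 and 1779 genes for the single drugs and 2528, 1974 and 3615 for the comparisons between treatments. With the low set only these were 2, 8, 10, 4 and 15 members, with 527, 796, 3181, 2019, 1298 and 2785 genes. With the authors' concentration-corrected log2 table and limma, 2, 9 and 12 members against DMSO and 9 for the combination against paclitaxel were called, with 1108, 1148, 4067, 2113 and 2170 genes in the first 5 comparisons. With the log2 concentration as a covariate 7 afatinib members were called. Fewer libraries enter the single-set fits; otherwise the cause was not tested.

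The interaction called 0 members and 159 genes. With the replicate number as a block it called 1 member and 501 genes, with no filter on low counts 1 member and 479 genes, with DESeq2 367 genes, with no concentration term 0 genes, with the log2 concentration 26, 2 with the authors' log2 values, 3 with the high set and 4 with the low set. The replicate block ended no member's call; the calls it added stand beside their genes in the report. Leaving out each library in turn gave 8 to 12 members and 2512 to 3667 genes for afatinib, 14 to 20 and 2966 to 3902 for paclitaxel, 16 to 22 and 5967 to 6927 for the combination, 12 to 12 and 4027 to 5218 for the combination against afatinib, 12 to 17 and 3324 to 4655 against paclitaxel, 20 to 25 and 5516 to 6772 for afatinib against paclitaxel, and 0 and 34 to 279 for the interaction. Of 432 alternative values of 48 changes of the 19 genes, 325 kept their direction and call, 107 kept their direction and lost the call, and 0 changed direction. The 48 changes were chosen as the largest calls in these libraries, and the alternatives reuse the same libraries. A kept direction was therefore likely, and the 432 values are not independent.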
